A study of Mus musculus with 4 samples.

Results

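The imprinted growth regulators described here are 10 genes of the mouse urogenital sinus (UGS): *H19*, *Dlk1*, *Meg3*, *Rian*, *Mirg*, *Mest*, *Peg3*, *Plagl1*, *Cdkn1c* and *Grb10*. They were taken by symbol from the 25819 rows of the deposited expression table, and each of the 10 symbols matched 1 row. The table holds 4 libraries, wild type and *Tbx18* GFP/GFP (called mutant here), each at E16.5 and at E18.5. *Tbx18* encodes a T-box transcription factor of the UGS mesenchyme, and the GFP allele is a knock-in that makes a null mutation when homozygous. All embryos came from matings of heterozygous carriers, so the wild type embryos were littermates of mutants, and each library pools the RNA of 3 males, whole UGS. Each genotype was sequenced once at a stage. The differences below thus have no replicate check, and none has a test, a replicate error or a p-value.

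In genomic imprinting a gene is transcribed from only one parental chromosome, chosen by DNA methylation laid down in the egg or the sperm. Many imprinted genes lie in clusters that share a control region, and many, though not all, are expressed in fetal mesenchyme. They include both promoters and restrainers of fetal growth. *H19*, *Meg3*, *Rian*, *Mirg*, *Cdkn1c* and, outside neurons, *Grb10* are expressed from the maternal chromosome. *Dlk1*, *Mest*, *Peg3* and *Plagl1* are expressed from the paternal chromosome. The FPKM values (fragments per kilobase of transcript and per mapped reads of the library) do not separate the parental alleles. In whole UGS they also cannot tell fewer cells of a type from less RNA per cell.

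The sequences around the starts of these genes differ in CpG, the dinucleotide at which imprints are laid down. RefSeq windows of 300 bases on GRCm38.p6, from 250 bases before to 50 after a start, matched 8 of the 10 genes with 12 windows, all but *H19* and *Cdkn1c*. The 3 windows shown first belong to *Plagl1* and *Mirg*, the members with the widest spread between libraries, and to *Meg3*, the RNA to which its domain is compared further on. CpG is in capitals.
Plagl1, chr10:13090582-13090881, plus strand: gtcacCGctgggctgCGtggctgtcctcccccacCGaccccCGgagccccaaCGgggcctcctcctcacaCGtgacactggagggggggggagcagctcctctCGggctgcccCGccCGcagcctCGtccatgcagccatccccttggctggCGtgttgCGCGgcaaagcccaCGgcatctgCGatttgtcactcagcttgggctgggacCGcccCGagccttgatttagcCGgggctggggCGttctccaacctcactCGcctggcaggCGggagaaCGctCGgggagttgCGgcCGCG
Mirg, chr12:109734731-109735030, plus strand: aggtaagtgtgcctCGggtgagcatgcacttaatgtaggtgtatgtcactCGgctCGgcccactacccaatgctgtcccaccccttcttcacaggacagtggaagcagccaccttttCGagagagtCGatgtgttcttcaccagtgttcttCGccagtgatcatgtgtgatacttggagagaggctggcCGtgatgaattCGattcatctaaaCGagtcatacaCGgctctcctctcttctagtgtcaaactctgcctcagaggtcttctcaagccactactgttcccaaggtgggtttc
Meg3, first start, chr12:109540746-109541045, plus strand: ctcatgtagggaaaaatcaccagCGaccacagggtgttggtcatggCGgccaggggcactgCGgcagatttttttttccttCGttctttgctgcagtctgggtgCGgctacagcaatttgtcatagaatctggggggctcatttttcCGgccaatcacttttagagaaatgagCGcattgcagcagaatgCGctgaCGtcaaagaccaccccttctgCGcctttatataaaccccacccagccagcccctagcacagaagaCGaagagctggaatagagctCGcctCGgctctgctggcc
The *Plagl1* window held 26 CpG, against 10 for *Mirg* and 13 for *Meg3*. The median over all 32851 windows was 7 CpG. *Rian* had 0 CpG in its window and *Dlk1* had 9. Of the windows of the 2 *Grb10* starts, one held 45 CpG and the other 9.

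Because the mutated gene encodes a T-box factor and *Plagl1* encodes a zinc finger factor that binds GC-rich DNA, the windows were searched on both strands for the T-box half-site GGTGTGA and for the PLAGL1 motif GGGGCCCC. Neither motif holds the letters of the other. The half-site was in 3.98% of all windows and in 2 of the 12 member windows. The PLAGL1 motif was in 1.08% of all windows and in 1 member window. These are the windows with a match, with the matches in capitals.
Peg3, chr7:6730370-6730669, minus strand: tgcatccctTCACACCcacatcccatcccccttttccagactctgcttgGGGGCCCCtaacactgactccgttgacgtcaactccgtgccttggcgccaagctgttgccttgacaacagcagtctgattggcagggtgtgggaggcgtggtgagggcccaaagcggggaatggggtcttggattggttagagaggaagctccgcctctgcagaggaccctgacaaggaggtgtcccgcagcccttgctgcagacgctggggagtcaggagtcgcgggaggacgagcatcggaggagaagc
Meg3, second start, chr12:109545148-109545447, plus strand: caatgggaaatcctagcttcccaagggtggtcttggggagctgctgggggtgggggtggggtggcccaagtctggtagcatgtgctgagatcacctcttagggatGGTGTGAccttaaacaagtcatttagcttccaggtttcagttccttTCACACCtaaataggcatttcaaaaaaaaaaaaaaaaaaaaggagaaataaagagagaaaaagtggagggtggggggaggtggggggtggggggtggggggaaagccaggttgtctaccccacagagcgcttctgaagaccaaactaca
*Peg3* held 1 of each motif, with the half-site starting 241 bases and the PLAGL1 motif 201 bases before the annotated start. The second *Meg3* start had 2 half-sites on opposite strands, beginning 145 and 99 bases before it. A match describes the letters of the reference and was not tested for binding.

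Several members are also host transcripts of microRNAs, short RNAs that pair with targets through a seed at bases 2 to 8. In RefSeq, *Mirg* spans 10 microRNA genes with 19 mature products, *Rian* 3 genes with 6, *Meg3* 2 with 3, and *H19* and *Mest* 1 each with 2. The products shown are the pair inside *Mirg* that share a seed, another pair inside *Mirg* with seeds rich in A and U, and both arms of the microRNA inside *H19*, with seeds in capitals.
mmu-miR-453, chr12:109735669-109735692: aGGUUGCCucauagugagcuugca
mmu-miR-496a-5p, chr12:109739132-109739152: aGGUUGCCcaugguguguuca
mmu-miR-154-3p, chr12:109738474-109738495: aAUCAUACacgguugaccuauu
mmu-miR-369-3p, chr12:109743466-109743486: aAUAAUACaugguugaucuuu
mmu-miR-675-5p, chr7:142577112-142577133, minus strand: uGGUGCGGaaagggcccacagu
mmu-miR-675-3p, chr7:142577078-142577099, minus strand: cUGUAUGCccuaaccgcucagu
Only miR-453 and miR-496a-5p, both with the seed GGUUGCC, shared a seed among the 19 products inside *Mirg*. The deposited table has rows for 9 microRNA genes inside *Mirg* and for 1 inside *H19*, and all 10 are listed at 0 in all 4 libraries. The libraries were made with an mRNA kit, so those rows are not read as absence of the microRNAs. The values below are those of the host transcripts.

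The libraries were not alike in depth. Single reads on olfactory receptor genes put them at about 62700000, 54600000, 28500000 and 51400000 mapped reads for E16.5 wild type, E16.5 mutant, E18.5 wild type and E18.5 mutant, the E18.5 wild type library being the shallowest. It also stood apart in content: its median log2 ratio to E16.5 wild type over all genes was -0.33, and summed erythroid transcripts were 5859 FPKM against 17922 to 28865 FPKM in the other 3. Of the 15023 rows that reached 1 FPKM anywhere, 12.2% were in it 2-fold or more below each other library, and 271 rows were 2-fold or more above. *Tbx18* itself had 3.47, 2.50, 3.16 and 2.93 FPKM in the same order of libraries, and the values do not separate an intact from a targeted transcript. All 12 mesenchyme and all 12 epithelium markers had at least 1 FPKM in every library, while the 6 hepatocyte markers together had at most 26.9 FPKM.

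All members but *Mirg* stood within the first 1521 rows by FPKM in every library, and in 3 of the 4 libraries their levels were close to each other (plot of the 4 levels of each gene). Their ratio of the highest to the lowest library ran from 1.07 for *Peg3* to 3.33 for *Plagl1*, and 8 of 10 genes stayed within 1.5-fold, *Meg3* only just at 1.496. The share of all rows within that fold over the 4 libraries was not computed, so this count does not show the members to be unusually steady. The exceptions were *Plagl1* and *Mirg*, each highest in the E18.5 wild type library.

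**Figure D1:**
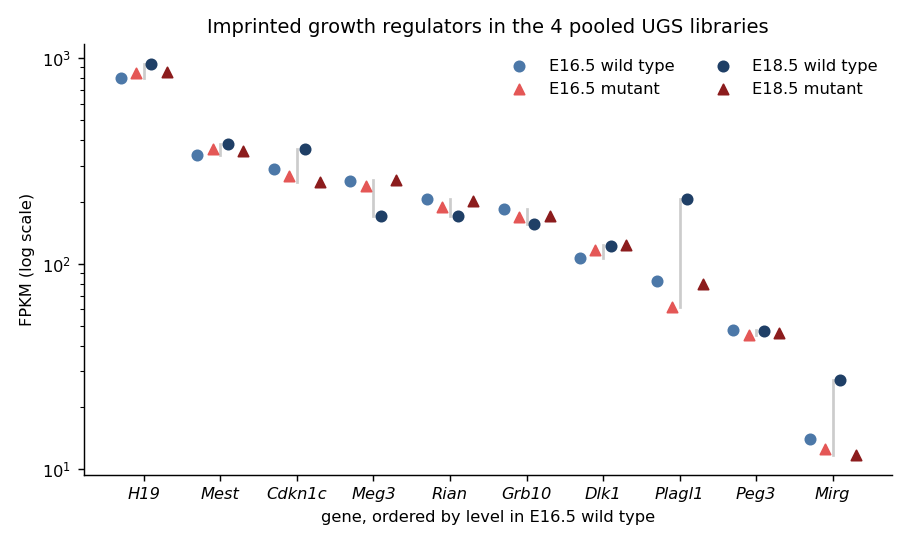
FPKM of the 10 imprinted growth regulators on a log axis, with 1 point for each pooled library (circles wild type, triangles mutant, light E16.5, dark E18.5) and a grey line from the lowest to the highest. *Plagl1* at 206 FPKM and *Mirg* at 27.1 FPKM in E18.5 wild type lie apart from their other 3 values, while *Peg3* stays between 44.8 and 47.8 FPKM.

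*H19*, a long noncoding RNA that restrains growth and shares its domain with the growth factor gene *Igf2*, was the most abundant member. It had 802 FPKM in E16.5 wild type, 842 in E16.5 mutant, 940.4 in E18.5 wild type and 859 in E18.5 mutant, which placed it between rank 40 and rank 68 of all rows. Its 4 values lay within 1.17-fold, and the wild type value was the lower of the pair at E16.5 and the higher at E18.5.

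*Meg3*, a maternally expressed long noncoding RNA linked to p53 activity and growth restraint, had 253, 239.8, 171 and 255 FPKM in E16.5 wild type, E16.5 mutant, E18.5 wild type and E18.5 mutant. The E18.5 wild type value was the low one, and the other 3 libraries lay within 1.06-fold of each other. *Rian*, the host of many small nucleolar RNAs in the same domain, had 206, 188, 171 and 202 FPKM in that order. It too was lowest in E18.5 wild type, with a full spread of 1.20-fold.

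*Mirg*, the microRNA host at the far end of that domain, was the least abundant member with 14.1, 12.5, 27.1 and 11.7 FPKM in the same order. Only the E18.5 wild type value stood apart. It was the opposite way to *Meg3* and *Rian*, although the 3 RNAs are encoded on the same strand of the same domain. At about 602 to 882 reads per kilobase of transcript, *Mirg* was also the member with the widest counting error.

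*Dlk1* encodes a transmembrane relative of the Notch ligands that holds back fat cell differentiation. Its levels were 106 FPKM in E16.5 wild type, 116 in E16.5 mutant, 122 in E18.5 wild type and 123 in E18.5 mutant. Both E18.5 libraries were above both E16.5 libraries, by at most 1.16-fold. *Grb10*, an adaptor that dampens insulin and IGF receptor signalling, had 184, 169.6, 156 and 172 FPKM in the same order of libraries. Its values lay within 1.18-fold, with the lowest in E18.5 wild type.

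*Plagl1*, also known as *Zac1*, encodes the zinc finger factor named above, which arrests cell growth and regulates other imprinted genes. It had 82.3 FPKM in E16.5 wild type, 61.7 in E16.5 mutant, 206 in E18.5 wild type and 79.8 in E18.5 mutant. The E18.5 wild type library was the one high value, and the row moved from between rank 723 and rank 1018 in the other libraries to rank 226 there. *Cdkn1c*, the cell cycle inhibitor p57, had 288, 266, 360.0 and 249 FPKM in E16.5 wild type, E16.5 mutant, E18.5 wild type and E18.5 mutant. It was also highest in E18.5 wild type, by 1.45-fold over the lowest.

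*Peg3*, a zinc finger gene with roles in maternal behaviour and growth, was the steadiest member at 47.8, 44.8, 47.3 and 46.1 FPKM in the same order. *Mest*, which encodes an enzyme of the alpha/beta hydrolase fold, had 338, 361, 380.5 and 353 FPKM. Its spread was 1.13-fold.

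The order of the members by FPKM was the same in both E16.5 libraries: *H19*, *Mest*, *Cdkn1c*, *Meg3*, *Rian*, *Grb10*, *Dlk1*, *Plagl1*, *Peg3* and *Mirg*. The E18.5 mutant library kept this order except that *Meg3*, at 255 FPKM, stood just above *Cdkn1c* at 249 FPKM. In E18.5 wild type *Plagl1* followed *Cdkn1c*, and *Rian* and *Meg3* behind it were 171.4 and 170.6 FPKM. Without replicates no neighbours in this order can be said to differ beyond their spread.

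At E16.5, when the mutant UGS was compared with wild type before prostate budding, all 10 regulators were within 1.33-fold of wild type. No member was past 2-fold or 1.5-fold in either direction. Over the 14761 rows with at least 1 FPKM in either library, 0.481% were higher and 1.17% lower in the mutant by 2-fold or more, and 1.44% and 2.72% passed 1.5-fold. The median log2 ratio of the members was -0.10, beside 0.01 over all rows, with 3 members higher and 7 lower.

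*Plagl1* had the largest E16.5 difference, a log2 ratio of -0.42 with a 95% counting interval of -0.48 to -0.35. Of all rows, 4.74% had a lower ratio. Counting intervals here are exact binomial intervals from the estimated reads on 1 kilobase of transcript. They are wider than needed for longer transcripts and cover counting error only, not the difference between embryos. *Dlk1* was at the other end of the members with a log2 ratio of 0.13 (0.08 to 0.18).
The skeletal muscle markers moved far more in the same pair of libraries, with 18 of 18 lower in the mutant and summed levels of 1293 FPKM in wild type and 581 FPKM in mutant. Smooth muscle markers were lower in 10 of 10, at 1183 and 630.4 FPKM. All markers of both muscle lists were at or above 1 FPKM in this pair. Erythroid markers were higher in the mutant in 5 of 5, at 17922 and 28865 FPKM. Of the 6 hepatocyte markers 5 passed 1 FPKM in either library and were higher in the mutant, the list summing to 13.5 FPKM in wild type and 26.9 FPKM in mutant. The part of these lists in the *Plagl1* value was not tested.

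At E18.5, after budding has begun, *Plagl1* and *Mirg* were more than 2-fold lower in the mutant than in wild type and no member was 2-fold higher. In the same pair of libraries 2.89% of 14733 rows were lower and 15.1% higher by at least 2-fold. *Plagl1* was 2.58-fold lower, a log2 ratio of -1.36 (counting interval -1.42 to -1.31), and 1.51% of all rows had a lower ratio. *Mirg* was 2.31-fold lower, a log2 ratio of -1.21 (-1.37 to -1.05), with 2.02% of rows below it.

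*Cdkn1c* came next at -0.53 (-0.57 to -0.50), short of 1.5-fold. *Meg3* was the highest, 1.496-fold higher in the mutant with a log2 ratio of 0.58 (0.53 to 0.63). *Rian*, its neighbour, was at 0.24 and *Grb10* at 0.14. *H19*, *Mest*, *Peg3* and *Dlk1* lay between -0.13 and 0.01. Erythroid markers were higher in the mutant in 5 of 5, with 28489 against 5859 FPKM. Smooth muscle markers were higher in 9 of 10, with 3695 against 1368 FPKM. Their sums at E16.5 were 1183 FPKM in wild type and 630.4 FPKM in mutant, so the E18.5 mutant library was the high one. All markers of both lists were at or above 1 FPKM in this pair. Skeletal muscle markers were lower in the mutant in 12 of 18, but their sum was higher there, at 1171 against 789 FPKM. By at least 2-fold, 3 of them were higher and 2 lower. Of the 4 hepatocyte markers that reached 1 FPKM in either library, 3 were lower. Genotype and library cannot be told apart in this pair, and the part of these lists in the *Plagl1* and *Mirg* values was not tested.

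**Figure D2:**
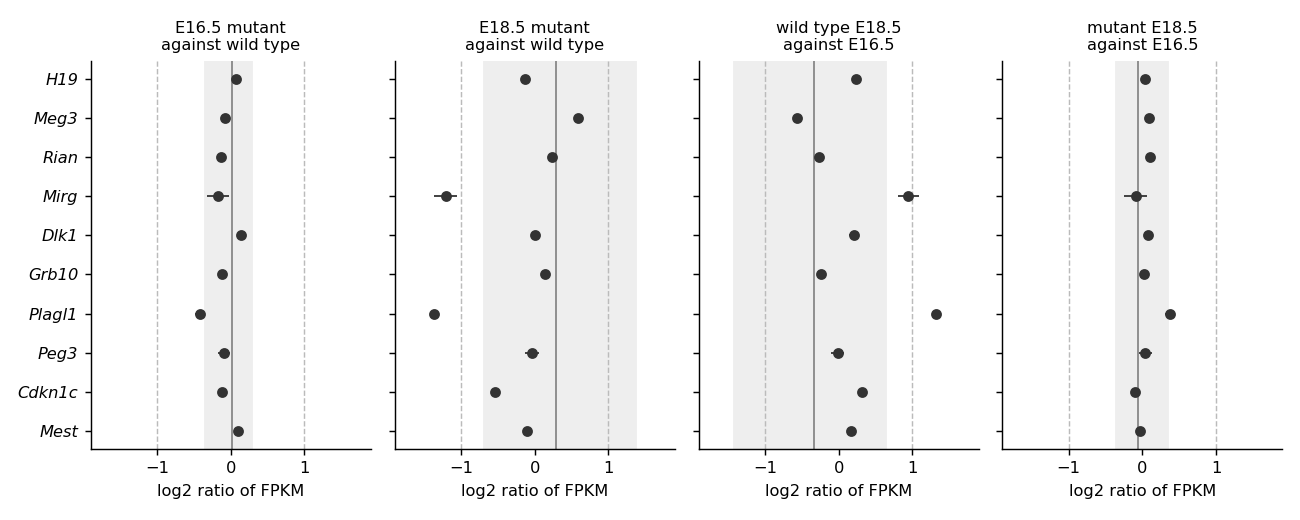
Log2 ratio of FPKM for each of the 10 regulators in the 4 comparisons, with bars for the 95% counting interval, a grey band from the 5th to the 95th percentile of all genes, a grey line at their median and dashed lines at 2-fold. *Plagl1* at -1.36 and *Mirg* at -1.21 lie below the band in the E18.5 genotype comparison, and every member lies within 1.33-fold in the E16.5 genotype and mutant stage comparisons.

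All genes together had a median log2 ratio of 0.29 at E18.5, so the same values read differently relative to that median. On that scale *Plagl1* was at -1.65 and *Mirg* at -1.499, and 9 of the 10 members lay below the median of all genes, *Meg3* alone above it at 0.29. The members past 2-fold stayed at 2, beside 5.42% of all rows below the median and 8.19% above it by that fold. *Rian*, *Grb10* and *Dlk1*, above 0 as deposited, were at -0.05, -0.15 and -0.28 relative to the median.

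The comparison of wild type E18.5 with wild type E16.5 shares the E18.5 wild type library, so its values are not independent of those at E18.5 above. *Plagl1* was 2.50-fold higher at E18.5, a log2 ratio of 1.32 (1.27 to 1.38), and was the only member past 2-fold. *Mirg* was 1.93-fold higher, at 0.95 (0.80 to 1.09). Over 14807 rows, 2.7% were higher and 16.8% lower by at least 2-fold, and 6.8% and 35.9% passed 1.5-fold in those directions. The 2 members past 1.5-fold were both higher. *Meg3* was lowest of the members at -0.57, followed by *Rian* at -0.26 and *Grb10* at -0.24. The members' median was 0.19 beside -0.33 over all rows. Relative to that median of all rows *Rian* was at 0.07, *Grb10* at 0.09 and *Meg3* at -0.24, and 9 members lay above it.

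From E16.5 to E18.5 in the mutant, which uses neither wild type library, no member passed 2-fold. Over 14713 rows 1.35% were higher and 0.571% lower by at least 2-fold. *Plagl1* again had the largest difference, 1.29-fold higher at E18.5 with a log2 ratio of 0.37 (0.31 to 0.44), and 5.54% of rows were higher. The other 9 lay between -0.10 for *Cdkn1c* and 0.11 for *Rian*.

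With the E18.5 wild type library left out, an alternative chosen after its values were seen, the largest difference of any member among the 3 other libraries was 1.33-fold. The E18.5 mutant had 79.8 FPKM of *Plagl1* against 82.3 FPKM in E16.5 wild type, a log2 ratio of -0.04. In the same pair, which differs in genotype and stage together, *Mirg* was at -0.27 and *Cdkn1c* at -0.21. Both genes past 2-fold at E18.5 therefore rest on that library, which also had the fewest reads, and genotype and library cannot be told apart at that stage. Among all rows, *Plagl1* was 1 of 271 that were at least 2-fold higher in E18.5 wild type than in every other library, and no member was among the 1837 that were 2-fold or more below.

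The E18.5 ratios also depended on a trend over transcript length and GC content. It was subtracted first on length and then on GC content, and only the result of both steps is given. After subtraction of that trend *Cdkn1c*, the member with the highest GC content at 59.4%, moved from -0.53 to -1.40 and so past 2-fold. *H19*, at 55.8% GC, moved from -0.13 to -0.80. *Rian*, at 35.8% GC the lowest, moved from 0.24 to 0.56. *Plagl1* at 46.4% GC went from -1.36 to -1.43 and *Mirg* from -1.21 to -1.60. The step also takes out the shift shared by all rows, whose median was 0.29 as deposited. Relative to that median, *Plagl1* started at -1.65, *Mirg* at -1.499, *Cdkn1c* at -0.82, *H19* at -0.42 and *Rian* at -0.05. The share of all rows past 2-fold after this step was not computed, so the members past that fold have no background on this scale.

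**Figure D3:**
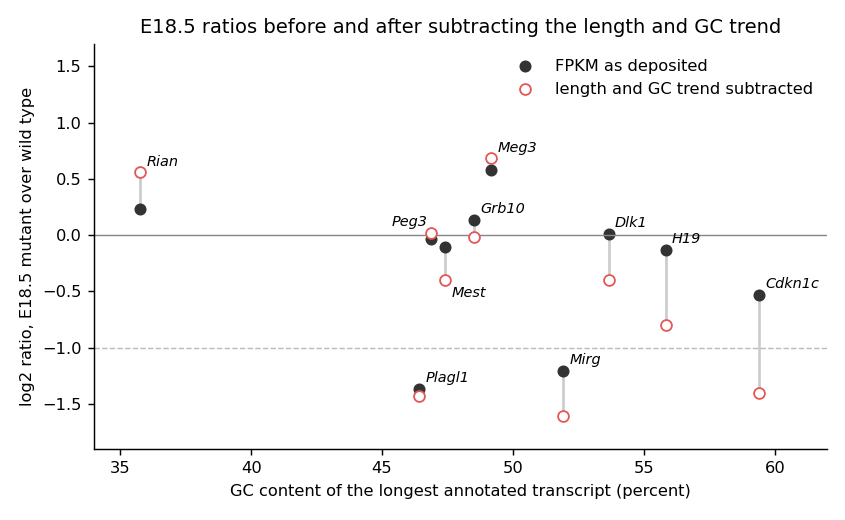
Log2 ratio of E18.5 mutant over wild type for the 10 regulators against the GC content of the longest annotated transcript, as deposited (filled) and after subtracting the trend on length and GC content (open), with a dashed line at 2-fold lower. *Cdkn1c* at 59.4% GC moves from -0.53 to -1.40, while *Plagl1* at 46.4% GC moves from -1.36 to -1.43. The moves include the shift shared by all rows, whose median was 0.29 as deposited.

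At E16.5 the same step moved each member by less than 0.1 on the log2 scale, with *Plagl1* at -0.41 and *Cdkn1c* at -0.14. In the wild type stage comparison it put *Cdkn1c* at 1.29, so that *Plagl1*, *Mirg* and *Cdkn1c* were past 2-fold, and *H19* at 0.97.

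Within the Dlk1-Dio3 domain on chromosome 12, where the paternal *Dlk1* lies beside the maternal *Meg3*, *Rian* and *Mirg*, the ratios between genes of a library need no scaling between libraries. *Mirg* was 5.57% of *Meg3* in E16.5 wild type, 5.21% in E16.5 mutant, 15.9% in E18.5 wild type and 4.59% in E18.5 mutant. The E18.5 wild type share was thus the high one, and the others lay close together. *Rian* was 81.4, 78.3, 100.5 and 79.1% of *Meg3* in the same order. *Dlk1* was 42.0, 48.5, 71.6 and 48.2% of *Meg3*. The shares depended on the length and GC trend. The *Rian* log2 ratio minus that of *Meg3* in the wild type stage comparison went from 0.30 to -0.05 when the trend was subtracted. Between genotypes at E18.5 it went from -0.35 to -0.13. For *Dlk1* the same differences went from 0.77 to 1.22 and from -0.57 to -1.08. For *Mirg* they went from 1.51 to 1.91 and from -1.79 to -2.29.

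**Figure D4:**
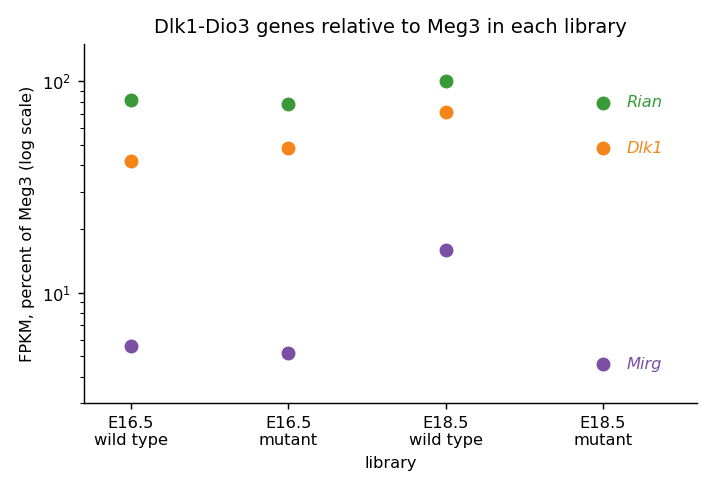
FPKM of *Rian*, *Dlk1* and *Mirg* as a percentage of *Meg3* in the same library, on a log axis, with 1 point for each of the 4 pooled libraries. *Mirg* stands at 15.9% of *Meg3* in E18.5 wild type and between 4.59 and 5.57% in the other 3.

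The other genes of that domain were low. *Rtl1*, a retrotransposon-derived gene, was between 1.57 and 2.52% of *Dlk1*, and *Dio3*, a thyroid hormone inactivating enzyme, between 1.35 and 2.46%. In the domain of *H19*, *Igf2* had 336, 330.4, 553 and 399 FPKM in E16.5 wild type, E16.5 mutant, E18.5 wild type and E18.5 mutant. Its share of *H19* was 41.9, 39.3, 58.9 and 46.5%, again highest in E18.5 wild type. *Kcnq1ot1*, the noncoding RNA of the *Cdkn1c* domain, had 1.85, 1.92, 4.70 and 1.69 FPKM, at least 2-fold higher in E18.5 wild type than in every other library. With the trend subtracted its E18.5 genotype log2 ratio went from -1.47 to -0.64, short of 2-fold. *Zim1*, beside *Peg3*, was between 19.8 and 26.2% of it. *Ddc*, beside *Grb10*, had 16.6, 14.1, 6.78 and 13.5 FPKM.

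A wider fixed list of 56 other genes taken as imprinted, 57 rows, served for comparison. Whether each is imprinted in the UGS was not tested. At E16.5 the 50 that passed 1 FPKM in either library had a median log2 ratio of -0.04 and none past 2-fold or 1.5-fold. At E18.5 their median was 0.09, with 4 higher and 2 lower in the mutant by at least 2-fold, beside 15.1% and 2.89% of all rows. With the length and GC trend subtracted the median was -0.20, with 0 higher and 2 lower. *Tssc4* had the highest ratio among those with at least 10 FPKM in the higher library, 4.87 FPKM in wild type and 16.51 FPKM in mutant, and *Peg10* the lowest, 38.6 and 24.0 FPKM. In the wild type stage comparison 2 were higher and 6 lower at E18.5 by that fold, beside 2.7% and 16.8% of all rows. With the trend subtracted the counts were 5 higher and 0 lower. That step also takes out the shift shared by all rows, whose median in this comparison was -0.33 as deposited. The share of all rows past 2-fold with the trend subtracted was not computed in any comparison. In the mutant stage comparison 1 of 49 was higher and 1 lower, with or without the trend.

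**Figure D5:**
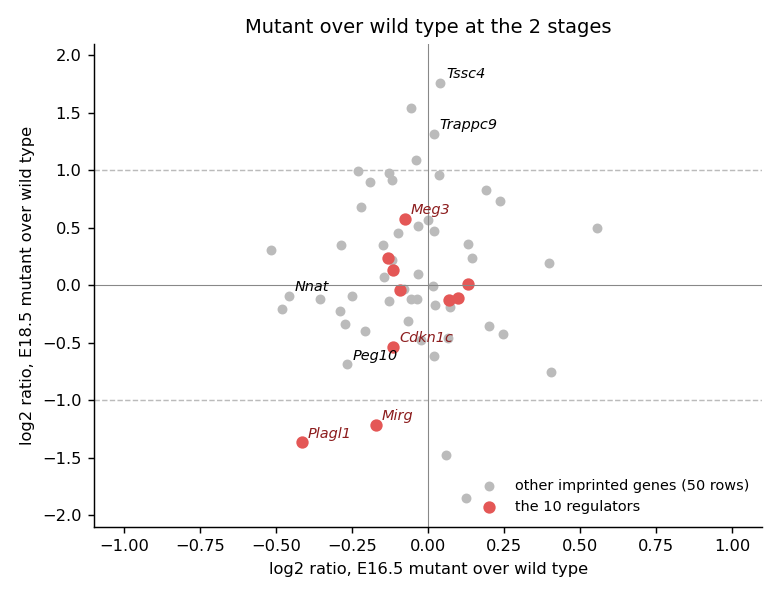
Log2 ratio of mutant over wild type at E16.5 (x axis) and at E18.5 (y axis) for the 10 regulators (red) and 50 rows of other imprinted genes (grey), with dashed lines at 2-fold for E18.5. *Plagl1* at -0.42 and -1.36 is the lowest regulator at both stages, and *Tssc4* is the highest of the other genes at E18.5.

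By parental origin, the 6 maternally expressed members had median log2 ratios of -0.12 at E16.5 and 0.00 at E18.5, and the 4 paternally expressed members 0.00 and -0.07. Each group held 1 of the 2 genes past 2-fold at E18.5, *Mirg* among the maternal and *Plagl1* among the paternal. The members past that fold thus came from both parental groups.

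Among 10881 rows with at least 5 FPKM in a library, those with a profile over the 4 libraries most like *Mirg* were *Klf3*, *Pou2f1* and *Hmgn5*, at a Euclidean distance of 0.06 to 0.09 in log2 units after each gene was centred on its mean. *Klf3*, a Krüppel-like repressor, had 29.0, 25.7, 54.3 and 22.9 FPKM. For *Meg3* the closest were *Nid2*, *Aimp1* and *Sdha*, within 0.03. For *Cdkn1c* they were *Fat4*, *Setd8* and *Acsl3*, within 0.02. No row lay closer to *Plagl1* than 0.160. Between members, *H19* and *Mest* were most alike, at 0.07, and *Meg3* and *Plagl1* least, at 1.77.

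In the deposited coordinates, whose starts are given here counted from 1 and whose genome build is not given in the sources used here, *Plagl1* lies on chromosome 10 from 12810594 to 12851500 and *Mirg* on chromosome 12 from 110973191 to 110987668. *Peg3* overlaps the antisense row *Apeg3* by 865 bases and *Mest* overlaps *Copg2* by 47 bases. The libraries were prepared with a stranded kit. The aligner was run at its default options, under which TopHat treats reads as unstranded, so reads of overlapping partners may not have been told apart.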

How the data were processed

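RNA-Seq was made from RNA of whole UGS pooled from 3 male embryos per library, in 4 libraries. Per the labels and the study's methods, the authors aligned stranded single-end reads with TopHat and estimated FPKM with Cufflinks. The submitters' processing notes name CASAVA 1.8.2, Trimmomatic 0.30, TopHat2 2.1.0 and Cufflinks 2.2.1. The deposited FPKM were used without rescaling. FPKM are not counts, so no count test was run. With 1 library per group no test between groups was run; an additive fit of genotype and stage would leave 1 residual degree of freedom and was not made. The genome build is not given in the sources used here, and deposited positions were not mixed with those of the RefSeq sequences (GRCm38.p6).

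Ratios were taken where the higher library had at least 1 FPKM, and counted at 2-fold and 1.5-fold. Depth was estimated from 15 to 27 olfactory receptor rows per library at the FPKM of a single read. Transcript length and GC content came by symbol from GENCODE vM21 (GRCm38) for 93.7% of rows with at least 1 FPKM, including all 10 members. As an alternative, a lowess trend (span 0.3) on the logarithm of length and then another on GC content were subtracted in turn. Other alternatives were equal FPKM sums, median centring, equal upper quartiles, no filter, a minimum of 5 FPKM in the higher library or of 1 FPKM in the lower, repeated symbols left out and a pseudocount of 1. The steps were tested on simulated data.

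The members and gene lists were chosen with earlier results of these data known. All members are named. Other imprinted genes named share a domain with a member or have 1 of the 3 highest or lowest ratios with at least 10 FPKM in the higher library. For likeness, the 3 nearest rows of a member by log2(FPKM + 0.1) could be named. The tools were scipy 1.17.1, statsmodels 0.14.6, pandas 2.3.3, numpy 2.4.6 and matplotlib 3.10.9 under Python 3.11.15.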

Additional observations from a re-analysis of the deposited data

Results flagged for a closer look

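*H19*, *Meg3*, *Rian*, *Mest* and *Grb10* differed between mutant and wild type in opposite directions at the 2 stages, with counting intervals that left out 0 at both. The log2 ratios at E16.5 and E18.5 were 0.0699 and -0.13 for *H19*, -0.0766 and 0.58 for *Meg3*, -0.13 and 0.24 for *Rian*, 0.10 and -0.11 for *Mest*, and -0.12 and 0.14 for *Grb10*. Apart from *Meg3* at E18.5 these ratios are within 1.18-fold. The difference between the stages was not tested. The E16.5 signs of *H19*, *Mest* and *Meg3* and the E18.5 signs of *Rian* and *Grb10* turned under at least 1 of the other scalings or the GC trend.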

How the results depend on the processing

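No paired analysis was possible because each genotype and stage has 1 library, and leaving out replicates was not possible for the same reason. The members past 2-fold stayed at 0 in the E16.5 genotype and the mutant stage comparisons under all 9 other settings. The FPKM filters and leaving out repeated symbols could not change any member, since each is 1 row above 5 FPKM in every library. Only the scalings, the trend and the pseudocount could move a member. At E18.5 they stayed at 2, both lower, except with the length and GC trend subtracted, where *Cdkn1c* made them 3. In the wild type stage comparison the 1 member became 2 with equal FPKM sums, median centring or equal upper quartiles, as *Mirg* passed 2-fold, and 3 with the trend subtracted. With median centring, 5.45% of all rows were above and 8.23% below the median by that fold. No such share was computed with the trend subtracted. Both comparisons with the E18.5 wild type library were repeated without it, chosen after seeing the data. With E16.5 wild type in its place the 2 members of the E18.5 comparison became 0. With the E18.5 mutant in its place the 1 member of the wild type stage comparison became 0, and *Plagl1* turned to -0.0441. Both replacements set the E18.5 mutant against E16.5 wild type. These differ in genotype and stage together, so the replacements cannot separate the library from genotype or stage. Over the 9 settings *Plagl1* ranged from -1.79 to -1.35 and *Mirg* from -1.63 to -1.14 at E18.5. The sign of 3 members at E16.5 and of 4 at E18.5 turned under a scaling or with the trend subtracted. So did that of 3 members in the wild type stage comparison and of 3 in the mutant stage comparison. Depth limits *Mirg* most.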
